A study of Mus musculus with 31 samples.

Results

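The 9 transcription factors followed here specify the eye field and keep retinal progenitors dividing, and were measured in eyes of mouse embryos lacking Ftx: Pax6, Six3, Six6, Rax, Lhx2, Sox2, Sox9, Meis1 and Meis2. They were found by the gene name on the array, taking every probe that is not a control and whose name equals the gene's, which gave 9 of the 34832 named genes and 11 probes. The study deleted Ftx, an X-linked gene for a long non-coding RNA near Xist, to examine its role after implantation, mainly in random X-chromosome inactivation. As a part of this it compared expression in mutant and WT eyes of each sex. Eyes were taken at embryonic day 13.5 from 3 WT female, 3 WT male, 3 Ftx KO male (Ftx-/Y) and 11 Ftx KO female (Ftx-/-) samples, with 1 array for each eye of the first 3 groups and 2 arrays for each Ftx KO female eye. All came from the C57BL/6N background, and the mutation is carried by every cell of the embryo. Per the study's methods, the deletion also takes away the microRNAs encoded within Ftx, the mutant eyes chosen were of normal appearance, and the pigmented epithelium was removed from every eye by dissection. The sources used here do not say whether eyes came from separate embryos, so p-values measure the spread between eyes, whichever embryos these came from.

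In the vertebrate forebrain a patch of the anterior neural plate becomes the eye field when Rax, Pax6, Six3, Six6 and Lhx2 are expressed there together, and these homeobox factors stay on as the optic vesicle folds into a cup. Progenitors of the neural retina then go on expressing them with the HMG-box factors Sox2 and Sox9 and the TALE homeobox factors Meis1 and Meis2, while they divide and give rise to retinal neurons. Loss of Rax, Pax6, Lhx2 or Sox2 in mouse leads to small or absent eyes, and Pax6, Six3, Sox2 and Meis factors also act in the lens.

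Pax6 was read by probes at separate places in its transcript, and because they gave different results their sequences are shown first. Both come from the array files, on the plus strand of chromosome 2 in mm9. The first lies across chr2:105524098-105524949, a stretch of 852 bases spanned by a probe of 60, and its capitals mark 42 bases that were recognised from their sequence, not from an annotation in the files, as the alternative exon 5a. That exon adds 14 codons to the paired domain and is left out of most Pax6 transcripts. The second lies at chr2:105536454-105536513, at the 3′ end of the coding sequence shared by both forms, and its capitals mark the stop codon, which follows 56 bases in lower case. Of its 60 bases 59 are printed, without the base after the stop.
A_52_P469306: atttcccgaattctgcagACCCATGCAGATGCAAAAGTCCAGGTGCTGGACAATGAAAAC
A_55_P2022946: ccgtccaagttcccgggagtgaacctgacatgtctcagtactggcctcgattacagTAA

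The other probes lay, all in mm9, at chr17:86023349-86023408 and chr17:86030070-86030129 for Six3, chr12:74045825-74045884 for Six6, chr18:66094331-66094390 for Rax and chr2:38224933-38224992 for Lhx2. Sox2 was read at chr3:34550773-34550832, Sox9 at chr11:112648809-112648868, Meis1 at chr11:18780695-18780754 and Meis2 at chr2:115689641-115689700. All 11 probes were well above background on every array and none had a saturated spot. For 9 of them, 1 for each gene, the mean normalised signal in WT females passed 500, the level that a probe had to exceed to be tested. The Pax6 exon 5a probe (mean signal 424) and the second Six3 probe (79.0) did not pass and were examined with all probes.

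The labels were checked first. The probe of Ftx, which the files name B230206F22Rik, was well above background in 3 of 3 WT female and 3 of 3 WT male eyes, on none of the 3 Ftx KO male arrays and on 9 of 22 Ftx KO female arrays, where its normalised signal was 8.25 to 37.4 against 50 to 134 in WT females. Xist was well above background on every female array and on no male array. The Y-linked Eif2s3y was so in all males, in no WT female and on 1 of 22 Ftx KO female arrays. Between 48.2% and 70.4% of probes were well above background on an array. Slides followed the groups: slide 1 held all WT eyes and 1 Ftx KO male eye, slide 2 held the other Ftx KO males with 3 Ftx KO females, and slides 3 and 4 held 4 Ftx KO females each. No slide held WT and Ftx KO females together, so slide and genotype cannot be told apart in females except through the Ftx KO males, and slide 1 was scanned on another day than the rest.

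Of the 9 genes, Sox2 alone differed between Ftx KO and WT females past the threshold, an adjusted p under 0.05 by limma over all probes tested. It was 1.29-fold higher in the mutants. The other 8 gave fold changes whose adjusted p was 0.0864 or more, 4 of them above and 4 below WT. Among the 14031 probes tested, 35.1% passed in this comparison, so 1 of 9 was fewer than the background share. No member passed in males, where 0.0214% of probes did, nor without WT male eye 3, where the share was 2.58%. Separately, the Pax6 exon 5a probe, which was too dim for that test, was lower in every Ftx KO female eye than in any WT female eye, a separation found for 10.3% of all 55627 probes with no minimum signal. All levels and differences below are on the log2 scale of normalised signal.

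Sox2, an HMG-box factor that keeps retinal progenitors competent to form neurons, was at 11.80, 11.67 and 11.69 in the WT female eyes and at 11.79, 11.74 and 11.95 in the WT male eyes. In Ftx KO males it was at 11.997, 11.85 and 11.96. In Ftx KO females it ran from 11.93 to 12.23 with a median of 12.06. All 11 Ftx KO female eyes lay above all 3 WT female eyes, whereas 21.5% of all probes tested had non-overlapping groups in this comparison, and the male groups overlapped. The female difference was 0.37 (SE 0.07, 95% CI 0.22 to 0.52, limma adjusted p = 0.000754), and the male difference was 0.11 (adjusted p = 0.652). The female change exceeded the male change by 0.26 (SE 0.11) and did not pass (p = 0.034, limma adjusted p = 0.319, where 0% of probes passed), so the sexes were not shown to differ in it. The Ftx KO female mean was 12.03 on slide 2, 12.20 on slide 3 and 12.02 on slide 4. With slide as a fixed block the female difference was 0.40 and with scan day as a block 0.46, and neither passed (limma adjusted p = 0.147 and 0.183). In those fits 0.0784% of all probes or fewer passed. With slide as a random block Sox2 passed (0.38, limma adjusted p = 0.00846).

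Sox9, a related factor that progenitors express before it is kept by Müller glia and the pigment epithelium, was lower in females than in males of the same genotype, in differences that did not pass the threshold. Its level was 9.80, 10.04 and 9.87 in WT females against 10.46, 10.09 and 10.38 in WT males. It was 10.54, 10.58 and 10.62 in Ftx KO males and 9.92 to 10.54 with a median of 10.11 in Ftx KO females. Every WT female eye was below every WT male eye, a separation that 19.2% of probes had, and none of the 11 Ftx KO female eyes reached the Ftx KO male mean. Between mutant sexes Sox9 was 0.44 lower in females (log2 difference -0.44, SE 0.12, p = 0.00109), and the limma adjusted p of 0.0531 missed the threshold that 1.96% of probes passed. That share was 0.107%, 0.192% and 0.363% without Ftx KO male eye 2, 3 or 1, where Sox9 did not pass either (-0.44, -0.42 and -0.46), and 1.05% to 3.03% with 1 Ftx KO female eye left out. Between WT sexes the difference was -0.41 (limma adjusted p = 0.329), in a comparison that 0.0713% of probes passed. The mean of these sex differences, a contrast chosen after the values were seen, was -0.43 (SE 0.09, limma adjusted p = 0.0532, with 0.306% of probes passing), and its adjusted p was under 0.05 in 8 of 36 other settings. On slide 2 alone, which held both mutant sexes, the Sox9 difference was -0.38 (limma adjusted p = 0.375). All 3 Ftx KO male eyes lay above all 3 WT male eyes, as 20.6% of probes were separated in males, but the difference of 0.27 did not pass (limma adjusted p = 0.475).

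**Figure D1:**
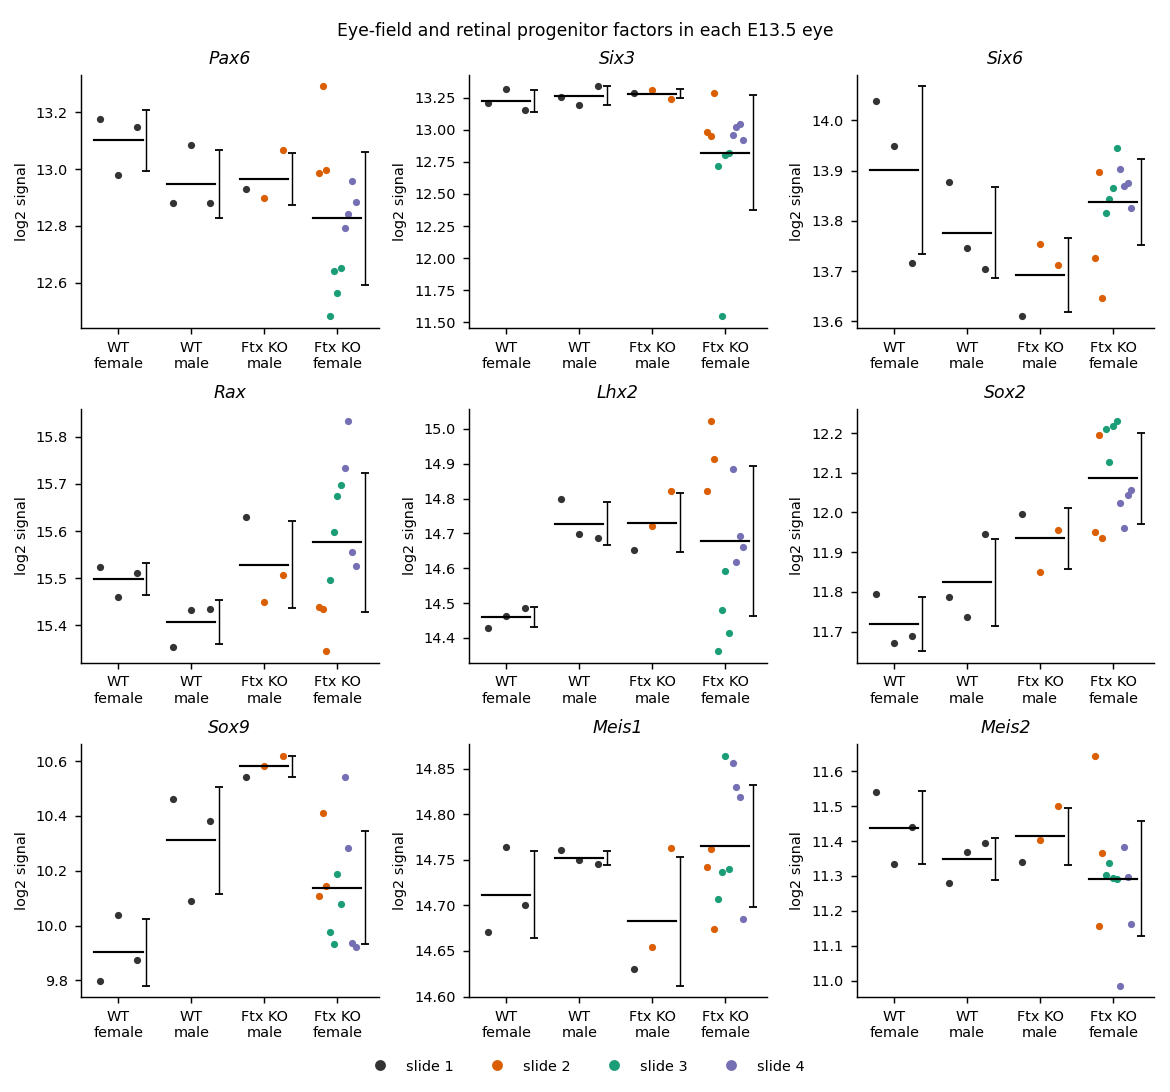
Log2 normalised signal of the tested probe of each of the 9 genes (vertical axes, scaled for each gene) in every eye, by group, with points coloured by slide, a bar at each group mean and a whisker of 1 SD. Sox2 lies higher in all 11 Ftx KO female eyes than in the WT female eyes, Sox9 means are lower in females of both genotypes, and a single Six3 point at 11.54 stands below all other eyes.

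Pax6, a paired-box factor required for optic cup and lens, was at 13.18, 12.98 and 13.15 in WT females with the 3′ probe. It was at 12.88, 13.09 and 12.88 in WT males and at 12.93, 12.90 and 13.07 in Ftx KO males. In Ftx KO females the lowest, median and highest levels were 12.48, 12.84 and 13.29. These eyes fell apart by slide: on slide 2 they lay between 12.99 and 13.29, on slide 3 between 12.48 and 12.65 and on slide 4 between 12.79 and 12.96. The slide 2 eyes overlapped WT females and the slide 3 eyes lay below every eye of the other groups. The female difference of -0.27 (SE 0.12, 95% CI -0.53 to -0.02) did not pass (limma adjusted p = 0.0864). Without Ftx KO female eye 2 it was -0.32 and passed (limma adjusted p = 0.0198), and with slide as a fixed block it was -0.06 (limma adjusted p = 0.877).

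The exon 5a probe of Pax6 gave a larger difference. Its level was 8.75, 8.69 and 8.74 in WT females, 8.12, 8.10 and 8.46 in WT males and 8.28, 8.0 and 7.92 in Ftx KO males. In Ftx KO females it ran from 6.96 to 8.12 with a median of 7.88. WT females thus lay above all other eyes, WT males included, a separation of the WT sexes that 17.6% of probes with no minimum signal had. In a fit over all these 55627 probes, of which 15.8% passed in females, this probe was at 0.532 of the WT level in Ftx KO females (log2 difference -0.91, SE 0.17, 95% CI -1.26 to -0.56, limma adjusted p = 0.00142). The male difference was -0.15 (limma adjusted p = 0.841), WT females minus WT males was 0.50 (limma adjusted p = 0.314), and the female change minus the male change was -0.76 (limma adjusted p = 0.364). With slide as a fixed block the female difference was -0.52 and with scan day -0.59, and neither passed (limma adjusted p = 0.708 and 0.611).

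The exon 5a reading was then set against the 3′ reading of the same eye, which cancels changes that both share. The difference between the probes moved by -0.64 from WT to Ftx KO females (two-sided exact permutation p = 0.0247 over 364 regroupings, smallest possible 0.00275). In males it moved by -0.17 (exact permutation p = 0.5 over 20 regroupings). With 3 eyes in each male group the regroupings come in mirrored pairs, so this two-sided test could not give a p under 0.05 in males. Adjusted over the 4 comparisons made, the female value did not pass (Benjamini-Hochberg 0.0989).

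**Figure D2:**
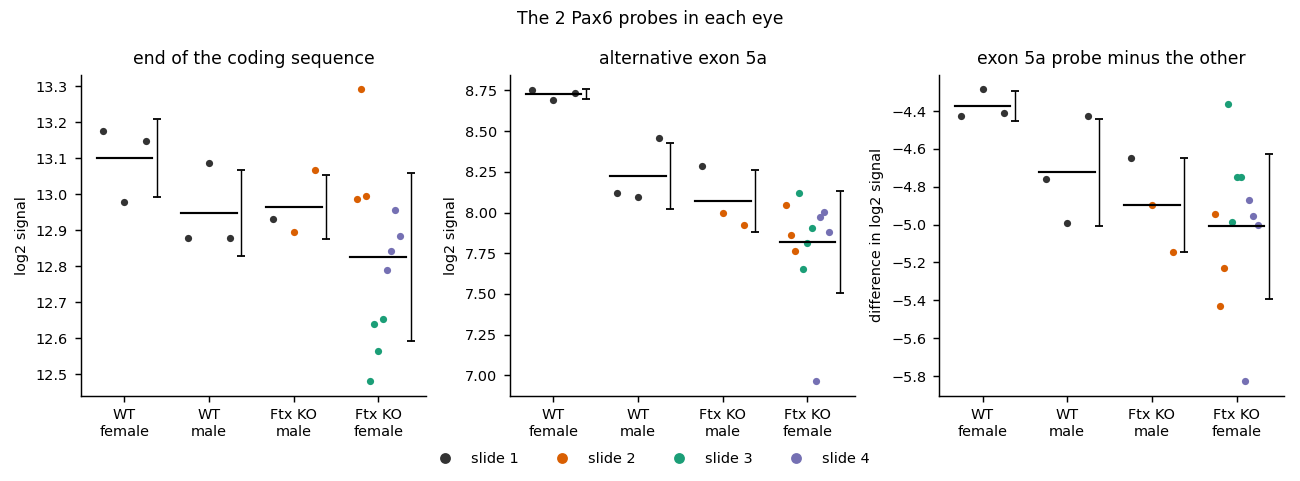
Log2 normalised signal of the Pax6 3′ probe (left) and of the Pax6 exon 5a probe (middle), and the exon 5a minus 3′ difference (right), in every eye by group, coloured by slide, with a bar at each group mean and a whisker of 1 SD. The exon 5a level is between 8.69 and 8.75 in WT females and no higher than 8.12 in Ftx KO females, while the 3′ levels of these groups overlap.

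Six3, a homeobox factor that holds back Wnt signalling in the anterior neural plate and is also needed in the lens, was at 13.21, 13.32 and 13.15 in WT females. It was at 13.26, 13.20 and 13.34 in WT males and 13.29, 13.31 and 13.24 in Ftx KO males, so all eyes of these groups lay between 13.15 and 13.34. In Ftx KO females it ran from 11.54 to 13.29 with a median of 12.95. The lowest value belonged to Ftx KO female eye 5, whose arrays did not agree: Six3 read 10.36 on array 1 and 12.73 on array 2. That gap of 2.36 compares with a median gap of 0.12 for Six3 between the arrays of an eye, and 23 of 14031 probes differed by more than 2 between these arrays. No outlier flag marked either spot.

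Whether Six3 passed in the female comparison depended on that eye and on the test used. Its female difference was -0.40 (SE 0.22, 95% CI -0.86 to 0.05) and did not pass in the main fit with all eyes (limma adjusted p = 0.156). With all eyes kept it passed with the replicate block and with the methods' t-test. Without eye 5 it was -0.28 and passed (limma adjusted p = 0.018), since the other 10 Ftx KO female eyes had an SD of 0.16 around 12.95. With array 2 of each mutant eye alone it was -0.30 (limma adjusted p = 0.0325). With slide as a fixed block it was -0.14 (limma adjusted p = 0.888). The second Six3 probe lay between 5.65 and 6.74 over all eyes, and in the fit over all probes it passed in no comparison (female difference -0.21, limma adjusted p = 0.447).

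Six6, the close relative of Six3 expressed from the eye field into retinal progenitors, differed less between groups. It was at 14.04, 13.95 and 13.72 in WT females, 13.88, 13.75 and 13.71 in WT males and 13.61, 13.75 and 13.71 in Ftx KO males. Ftx KO females ran from 13.65 to 13.94 with a median of 13.87. All groups overlapped, and the female difference of -0.06 (SE 0.07, 95% CI -0.20 to 0.08) did not pass (limma adjusted p = 0.478). Between mutant sexes it was 0.15 higher in females (p = 0.0418, limma adjusted p = 0.282).

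Rax, a homeobox factor without which no optic vesicle forms, was at 15.52, 15.46 and 15.51 in WT females, 15.35, 15.43 and 15.43 in WT males and 15.63, 15.45 and 15.51 in Ftx KO males. Ftx KO females ran from 15.35 to 15.83 with a median of 15.56. The WT males were the lowest group, below every WT female and every Ftx KO male eye, separations that 19.2% and 20.6% of probes had. Neither the female difference of 0.08 (95% CI -0.09 to 0.24, limma adjusted p = 0.47) nor the male difference of 0.12 (95% CI -0.09 to 0.33, limma adjusted p = 0.665) passed.

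Lhx2, a LIM-homeobox factor needed for the step from optic vesicle to optic cup, was at 14.43, 14.46 and 14.49 in WT females and at 14.80, 14.70 and 14.69 in WT males. Ftx KO males were at 14.65, 14.72 and 14.82, and Ftx KO females ran from 14.36 to 15.02 with a median of 14.66. WT females lay below both male groups (19.2% of probes separated the WT sexes), and Ftx KO females spread over the levels of all the other groups. Among them slide again went with the level, with 14.82 to 15.02 on slide 2, 14.36 to 14.59 on slide 3 and 14.62 to 14.88 on slide 4. The female difference was 0.22 (SE 0.11, 95% CI -0.01 to 0.45, limma adjusted p = 0.126), and WT females minus WT males gave -0.27 (limma adjusted p = 0.522).

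Meis1 and Meis2, TALE homeobox factors that bind DNA with Pbx proteins and act upstream of Pax6 in the lens, differed little. Meis1 was at 14.67, 14.76 and 14.70 in WT females, 14.76, 14.75 and 14.75 in WT males, 14.63, 14.65 and 14.76 in Ftx KO males and 14.67 to 14.86 with a median of 14.74 in Ftx KO females. Its female difference was 0.05 (95% CI -0.05 to 0.15, limma adjusted p = 0.404). Over 38 alternatives this difference ran from -0.06 to 0.31 and never passed. Meis2 was at 11.54, 11.33 and 11.44 in WT females, 11.28, 11.37 and 11.39 in WT males and 11.34, 11.40 and 11.50 in Ftx KO males. Ftx KO females ran from 10.98 to 11.64 with a median of 11.30, overlapping WT. Its female difference was -0.15 (95% CI -0.33 to 0.04, limma adjusted p = 0.216).

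**Figure D3:**
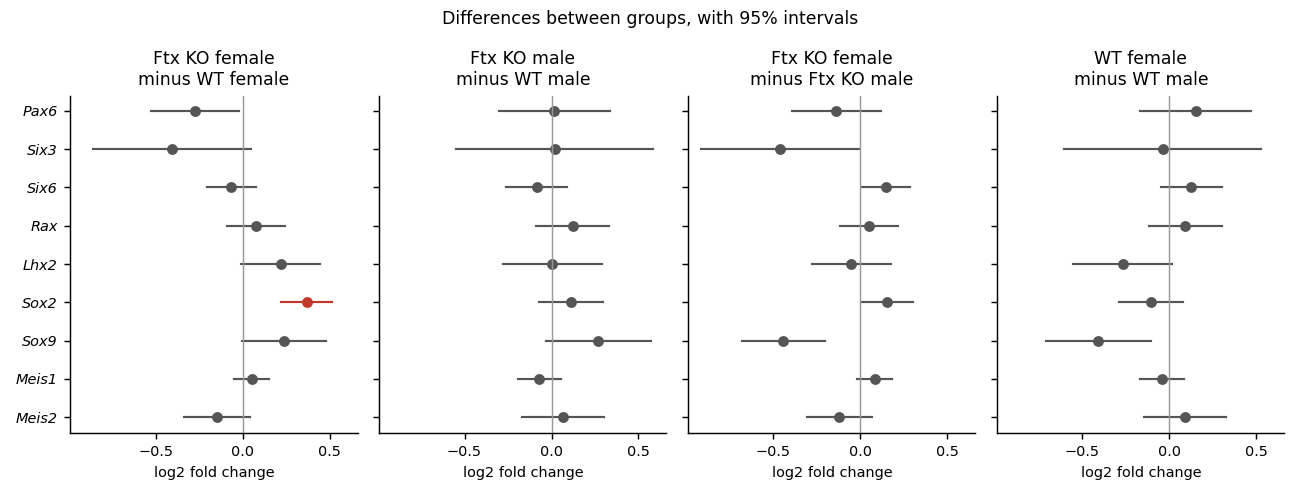
Log2 difference of each of the 9 genes, with its 95% confidence interval, for Ftx KO minus WT in females, Ftx KO minus WT in males, female minus male in Ftx KO and female minus male in WT; red points have a limma adjusted p under 0.05. Sox2 in the female comparison (0.37) is the only red point, and the intervals of Six3 are the widest.

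Over the 9 genes the median difference was 0.05 in the female comparison, where it was -0.01 over all probes tested, and 0.02 in the male comparison. Unadjusted p-values under 0.05 were found for 2 of 9 in females (Sox2 and Pax6), where 44.9% of all probes had one, and for none in males, where 11.8% did. Between mutant sexes 4 of 9 had one (Six3, Six6, Sox2 and Sox9) against 16.7% of probes, and between WT sexes 1 of 9 (Sox9) against 10.2%. The methods' t-test with Benjamini-Hochberg adjustment called 3 of 9 in females (Sox2, Six3 and Lhx2) against 24.3% of all probes, and 2 between mutant sexes (Six3 and Sox9) against 6.8%. It called none of the 9 and 0% of probes in males and between WT sexes. The comparisons share eyes, since the Ftx KO female and WT groups enter several of them. Between mutant sexes 4.49% of probes had non-overlapping groups, and none of the 9 genes did.

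Genes that work with these factors were taken as 4 lists. Of 23 other retinal progenitor genes 21 were tested, and in the female comparison, which 35.1% of all probes passed, 4 rose and 1 fell, with a median of -0.01. Mitf, which directs cells to the pigment epithelium, rose by 0.73 (limma adjusted p = 0.0184), and Vax2, a ventral retina factor, by 0.36 (limma adjusted p = 0.0233). Prox1, which lens fibre cells also express, fell by 0.85 (limma adjusted p = 0.00392). Without WT female eye 4 Vax2 was at 0.28 and did not pass (limma adjusted p = 0.148), and without WT female eye 1 Mitf did not pass (limma adjusted p = 0.0799).

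Of 20 paralogues of the 9 genes only 9 were bright enough to test, with 1 higher, 3 lower and a median of -0.07 in the female comparison (35.1% of all probes passed). Sox1, of the same subgroup as Sox2 but expressed in lens fibres, fell by 0.69 (SE 0.14, limma adjusted p = 0.00105). Its Ftx KO female eyes at 10.58 to 11.24 all lay below the WT female eyes at 11.45 to 11.72. Meis3 fell by 0.41 (limma adjusted p = 0.000349) and Six5 by 0.18 (limma adjusted p = 0.00986), while Pknox1, a TALE factor that also pairs with Pbx proteins, rose by 0.79 (limma adjusted p = 0.000606). Pknox1 was at 8.68 in WT female eye 1 and its difference was 0.48 without that eye (limma adjusted p = 0.00665), and Six5 did not pass without WT female eye 4 (limma adjusted p = 0.083) and was at 0.12 with the series table (limma adjusted p = 0.587).

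Of 18 cofactors 15 were tested, with 5 higher, 2 lower and a median of 0.06, where 35.1% of all probes passed. Eya1, a phosphatase and coactivator that binds Six3 and its relatives, rose by 1.03 (SE 0.31, limma adjusted p = 0.0151) and its relative Eya3 by 0.32 (limma adjusted p = 0.0372). Ldb2, which joins LIM-homeobox proteins such as Lhx2 into complexes, rose by 0.41 (SE 0.07, limma adjusted p = 0.000513). Pbx2, a DNA-binding partner of the Meis proteins, fell by 0.27 (limma adjusted p = 0.00574), but with the series table it was at 0.011 (limma adjusted p = 0.961). Eya3 was at 0.09 without WT female eye 1 (limma adjusted p = 0.517), and Eya1 did not pass without WT female eye 2 (limma adjusted p = 0.0793).

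Of 11 retinal neurogenic factors, the genes that progenitors switch on as they leave the cell cycle, 8 were tested, with 1 higher, 4 lower and a median of -0.23, where 35.1% of all probes passed. Ptf1a, which horizontal and amacrine cells require, fell by 0.45 (limma adjusted p = 0.031) and Neurod1 by 0.37 (limma adjusted p = 0.0132), and both missed the threshold without WT female eye 1 (limma adjusted p = 0.166 and 0.0717). Dll1, a Notch ligand, rose by 0.27 (limma adjusted p = 0.00286). This list was also the one with calls between mutant sexes, where 4 of 8 were lower in females and 1.96% of all probes passed, among them Ptf1a, Dll3 and Neurog2, named here after their values were seen.

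The 14 listed genes named for the female comparison were chosen as passing it, and 7 of them passed whichever single eye was left out, where 22.4% to 36.6% of all probes did. With slide as a random block 6 of the 14 passed (Ldb2, Meis3, Pbx2, Pknox1, Prox1 and Sox1), in a fit that 17.5% of all probes passed, and with slide as a fixed block none of any list did. In males none of the 4 lists had a call.

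**Figure D4:**
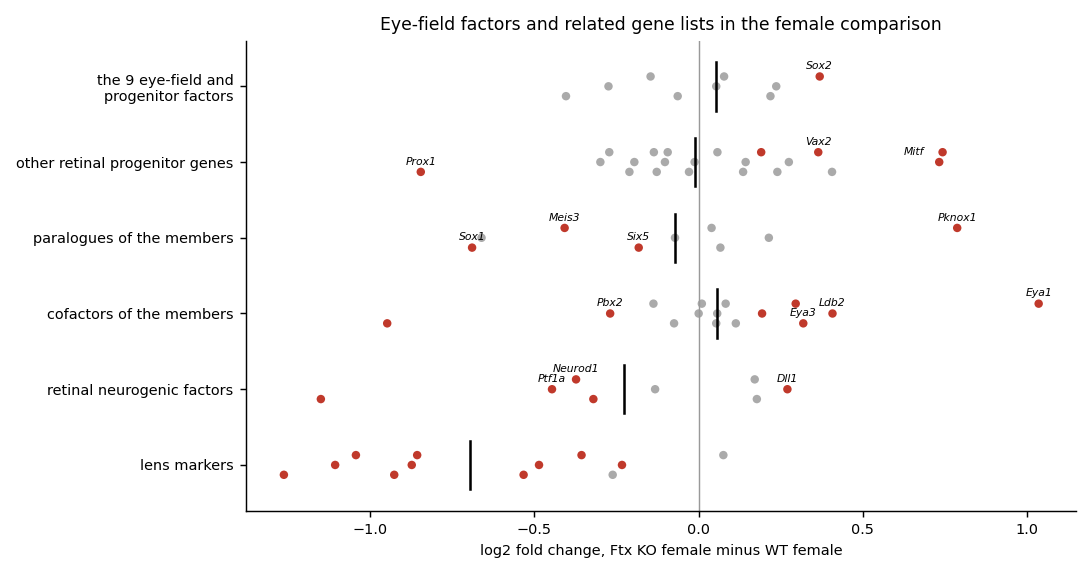
Log2 difference, Ftx KO female minus WT female (horizontal axis), for the 9 genes, the 4 related lists and the lens markers, with 1 point for each tested gene, red where the limma adjusted p was under 0.05 and grey otherwise, and a black bar at each list's median. The 9 genes centre on 0.05 with Sox2 as the only red point, the neurogenic factors on -0.23 and the lens markers on -0.69.

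Some markers of other tissues, mostly those of the lens, passed in the female comparison. In eyes measured in bulk fewer cells of a type cannot be told apart from less RNA in each cell. Of 12 lens markers, 10 fell in Ftx KO females, with a median of -0.69, where 35.1% of all probes passed. With slide as a random block 7 of the 12 passed, and with slide or scan day as a fixed block none did (medians -0.80 and -0.89), in fits that 17.5%, 0.0784% and 0.0641% of all probes passed. Their summed normalised signal was 1370000 to 1460000 in WT females and 1050000 to 1360000 in Ftx KO females, against 1400000 to 1420000 in WT males and 1340000 to 1390000 in Ftx KO males. All 12 were well above background on most arrays, counted over all groups together. The sum over 10 periocular mesenchyme markers was 3730 to 5420 in WT females and 5940 to 51800 in Ftx KO females. It was 5370 to 14000 in WT males and 4860 to 10100 in Ftx KO males. Over 8 markers of the pigment epithelium, the layer removed by dissection, it was 4090 to 6420 in WT females and 2320 to 31000 in Ftx KO females. For these 8 it was 7030 to 11400 in WT males and 3910 to 6320 in Ftx KO males. Retinal neuron markers (8 genes, of which 2 rose and 2 fell among the 7 tested) summed to 128000 to 161000 in WT females and 117000 to 153000 in Ftx KO females. Erythroid markers summed to 226000 to 260000 in WT females, 205000 to 373000 in Ftx KO females and 297000 to 609000 in Ftx KO males. The sums of cartilage (21300 to 24200 in WT females and 21900 to 25200 in Ftx KO females), endothelium (6060 to 6490 and 5580 to 8660), macrophage (5180 to 5510 and 4510 to 6260) and surface ectoderm markers (3950 to 4580 and 2870 to 5370) overlapped between these groups. On most arrays, counted over all groups together, 3 of 5 muscle markers were not well above background. Their sum over the 5 was 80 to 107 in WT females and 99.6 to 848 in Ftx KO females. In WT males it was 81.2 to 133 and in Ftx KO males 63.8 to 397. The part of these tissues in the Sox2, Pax6 and Six3 values was not tested.

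The genes whose level followed each factor most closely across the 20 eyes, after group means were taken out, are given as descriptions, since eyes of a slide share it. For Pax6 they were Mtfp1 (Pearson r 0.96, or 0.85 with slide means also taken out) and Dnttip2 (0.95 and 0.81). For Six3 they were Ccdc59 (0.94 and 0.90) and Cap1 (0.92 and 0.89), and for Six6 Mgat5b (0.83 and 0.85) and Myst2 (0.80 and 0.78). Rax went with Samhd1 (0.88 and 0.77) and Tmem41b (0.86 and 0.68), and Lhx2 with Enoph1 (0.96 and 0.86) and Gars (0.95 and 0.89). Sox2 went with Tmprss3 (0.88 and 0.79) and Mef2a (0.87 and 0.78). Sox9 went with Runx1t1 (0.88 and 0.87) and Slc1a3 (0.87 and 0.86), a glutamate transporter that progenitors and later Müller glia express. Meis1 went with Chtf18 (0.83 and 0.82) and Tsc1 (0.82 and 0.79), and Meis2 with Itgb1 (0.79 and 0.79) and Snx5 (0.79 and 0.85).

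Among the 9 genes themselves Pax6 and Lhx2 had the highest r, 0.80, which was 0.19 once slide means were taken out. The pairs Lhx2 with Sox9 (0.58, and 0.64 with slide means out) and Sox9 with Meis1 (0.51 and 0.62) did not depend on slide in this way. Lhx2 and Sox2 went in opposite directions across eyes (r = -0.45), but not within slides (0.25).

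Since the study relates expression in the mutant females to their Xist level, each of the 9 genes was set against the mean of 7 Xist probes over the 11 Ftx KO female eyes, in which Xist ran from 11.0005 to 11.95. Six3 was the single gene whose relation passed over the 9 tested, with a Pearson r of 0.70 (two-sided permutation p = 0.00479, adjusted 0.0431) and a Spearman rho of 0.63 (permutation p = 0.0441, adjusted 0.397). The relation rested on eyes 4 and 5, the farthest from the median Xist level, and without them r was 0.30 (permutation p = 0.444). Eye 5 is the eye whose arrays disagreed on Six3, and with array 1 of each eye r was 0.54 (adjusted permutation p = 0.12) and with array 2 0.46 (adjusted permutation p = 0.302). With slide means taken out r was 0.66 (permutation p = 0.0219, adjusted 0.197), and no slide held the 6 eyes needed for a value within it. The other 8 genes had an r between -0.47 and 0.48, with adjusted permutation p-values of 0.422 or more.

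**Figure D5:**
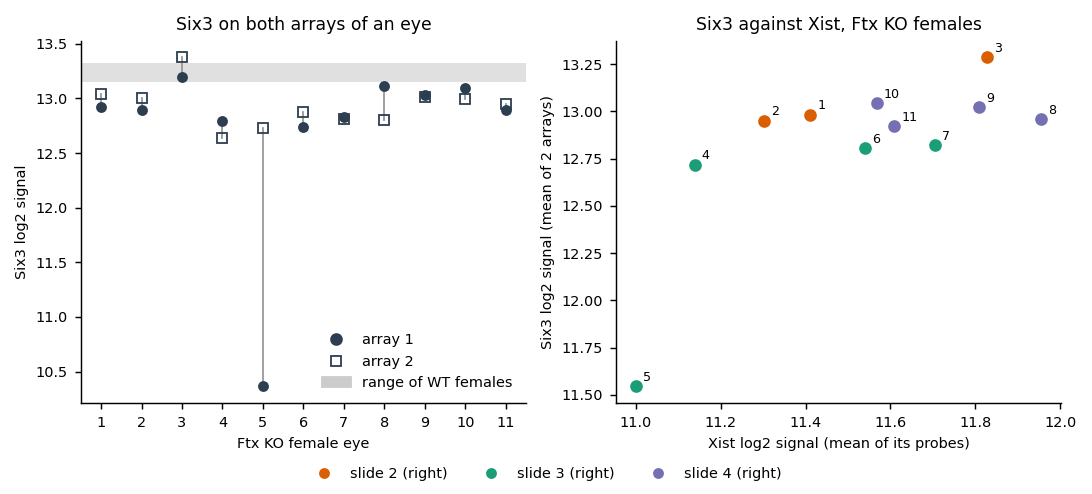
The left panel plots the log2 normalised signal of Six3 on array 1 (circles) and array 2 (squares) of each Ftx KO female eye, with the range of WT females in grey, and the right panel plots Six3 against the mean log2 signal of 7 Xist probes in the same 11 eyes, coloured by slide and numbered by eye. Eye 5 reads 10.36 on array 1 and 12.73 on array 2 and has the lowest Xist level, 11.0005, among the eyes shown.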

How the data were processed

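RNA of 20 eyes was labelled with Cy3 and hybridised to 31 one-colour Agilent arrays. Per the file headers, the authors' scans were read with Feature Extraction 11.0.1.1, and the deposited values are the background-subtracted intensity of 62976 spots per array with quality flags, of which 3671 spots are controls. A further WT female eye that the study's methods count was not analysed here. The authors' value table of the series, also deposited as intensity and not normalised between arrays, entered as an alternative.

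Probe intensities were normalised with the quantile-spline method named in the methods, which was coded in R 4.3.3 (tables read with version 1.17.8 of data.table) and used 100 sample points, 5 iterations and a minimum offset of 5. Probe spots that carried a flag for non-uniformity (120) or as outliers of their population (5639) were dropped, replicate spots and replicate arrays were averaged as log2, and probes measured in all eyes with a mean WT female signal above 500 were kept (14031 of 55681). Each eye counted as 1 replicate. Groups were compared by limma 3.58.1 (trended eBayes, all 20 eyes in 1 fit), with Benjamini-Hochberg adjustment over all probes tested. The difference between the Pax6 probes was tested by two-sided exact permutation, and relations with Xist by 100000 permutations (seed 7). In simulated data, 200 of 14031 probes were given a log2 change of 1 in Ftx KO females and another 200 in Ftx KO males. The female comparison recovered 188 of its 200, beside 13 false calls, and the male comparison 172, beside 9. The simulated eyes had no slide effect, so these counts do not describe data in which slide follows genotype, nor changes smaller than 1. The number of arrays limits the precision.

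The 9 genes and all lists were chosen with earlier results of these data known. The text names all 9 with their probes (per-eye values for the brightest), for each the 2 genes most like it, and from each related list at most the 3 largest rises and falls in the female comparison with an adjusted p under 0.05. A few listed genes that the rule names are not reported here, though they stay in the counts and medians of their lists. Alternatives were other normalisations, filters, single arrays, each eye left out, slide, scan day or replicate number as a block, limma without a trend, the methods' t-test, the groups compared alone and the fold limits of 1.2 and 0.8. Leaving out each Ftx KO female eye, single arrays for the Xist relation, the mean sex difference and the fit of the exon 5a probe were added after seeing the data. Per-gene names and mm9 positions are those of the files.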

Additional observations from a re-analysis of the deposited data

How the results depend on the processing

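In Ftx KO against WT females, where 1 of the 9 genes passed (Sox2), the number was 0 with slide or with scan day as a fixed block (0.0784% and 0.0641% of all probes passed), and 2 with the series table (Lhx2 and Sox2, 20.2%), with array 2 of each Ftx KO female eye (Six3 and Sox2, 32.5%) and with the replicate block (Six3 and Sox2, 23%). It was 3 with the methods' t-test (Lhx2, Six3 and Sox2, 24.3%), and 1 to 2 with 1 eye left out, where Pax6 joined Sox2 without Ftx KO female eye 2 and Six3 without eye 5. Sox2 passed in 36 of 38 alternatives, with differences of 0.34 to 0.65 and adjusted p-values of 0.000351 to 0.183, and the exon 5a probe of Pax6 in 29 of 31, the exceptions for both being slide and scan day as fixed blocks. In males no gene passed in any alternative. Between mutant sexes, where 0 passed, the number was 1 with normexp and with array 1 (Sox9, where 1.74% and 1.79% of all probes passed), 2 with the methods' t-test and with the fold limits and an unadjusted p (Six3 and Sox9, 6.8% in both), and 0 to 1 with 1 eye left out (Sox9 without Ftx KO female eye 2, 8 or 9). Between WT sexes it was 1 with the fold limits (Sox9, 4.34%). For the mean sex difference it was 1 with normexp, all probes, the filter on probes well above background, array 1, the fold limits or no trend, and 0 to 1 with 1 eye left out (without Ftx KO female eye 2, 3 or 8), each time Sox9, in settings that 0.264% to 2.2% of all probes passed. The single relation with Xist was lost, leaving 0, without the 2 farthest eyes, with slide means taken out and with either array alone. With the series table Pbx2 was at 0.011 and Six5 at 0.12, both reversed in sign and not passing (limma adjusted p = 0.961 and 0.587). The cause of these changes was not tested. Same-numbered eyes of different groups did not deviate together (r of -0.60 to 0.30 over 16 pairs, 7 of them over 0.1), so the replicate numbers were not taken to pair eyes. The replicate block moved the probes called in females from 4919 to 3230. The difference between the female and male changes could not be computed with the methods' t-test or with only the groups compared, and a single slide gave no female comparison.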
